A study of Rattus norvegicus with 15 samples.

Results

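The genes described here make the inhibitory transmitter GABA (γ-aminobutyric acid) or form the NMDA receptor for glutamate, and were measured in the lumbar spinal cord of rats with an injured sciatic nerve. They are Gad1 (ENSRNOG00000000007), Gad2 (ENSRNOG00000018200), Grin1 (ENSRNOG00000011726), Grin2a (ENSRNOG00000033942) and Grin2b (ENSRNOG00000008766), listed by identifier, in a rule that uses no measured value but was written with earlier results of these data known. All 5 were found among the 34202 rows of every table, and all 5 were among the 16522 genes kept for testing. The tables hold identifiers only, so the symbols rest on the list that paired each identifier with its name. Adult male Sprague-Dawley rats were used throughout, with L4-L6 cord from the injured side taken on postoperative day 10. Sham rats had the left sciatic nerve exposed without ligation, and chronic constriction injury (CCI) rats had 4 loose ligatures around it. Ligated rats were untreated (CCI) or were given one of 3 preparations for 5 days from postoperative day 6. These were YZP at 10.8 g crude drug per kg (CCI+YZP), YH at 7.2 g crude drug per kg (CCI+YH) and BZ at 3.6 g crude drug per kg (CCI+BZ). YZP is the Yuan-Hu Zhi Tong Prescription that the study is about. YH and BZ are components of that prescription, and the doses of the 3 preparations differed. Each ligated group held 7 rats and each of the 5 groups gave 3 libraries, 15 in all. The sham group shows exposure of the nerve without injury, and no group received a preparation without ligation.

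GABA is made from glutamate by glutamate decarboxylase, which exists as the enzymes GAD67, encoded by Gad1, and GAD65, encoded by Gad2. GAD67 is found through the cell body and terminals, while GAD65 is concentrated at synaptic terminals. In the dorsal horn, interneurons that release GABA restrain the relay of pain signals. NMDA receptors are glutamate-gated channels built from the obligatory GluN1 subunit, encoded by Grin1, with GluN2 subunits such as GluN2A (Grin2a) and GluN2B (Grin2b), which set the kinetics and pharmacology of the channel. Their activity in the dorsal horn is a known part of central sensitization after nerve injury.

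Promoter sequences are shown for the members that have one in the RefSeq table used (GRCr8 assembly), since Gad1 and Gad2 varied together between libraries, in step with library composition as described later, while Grin1 varied least. Of 5 symbols, 3 matched, and Grin2a and Grin2b had no entry. Each window runs from 250 bases before the annotated start site to 50 bases after it, on the strand of the gene. The GRCr8 positions are chr3:75777202-75777501 on the plus strand for Gad1, chr17:89671468-89671767 on the plus strand for Gad2 and chr3:28528705-28529004 on the minus strand for Grin1. Capitals mark any match to the TATA box letters TATAAA, the GC box letters GGGCGG, the EGR factor letters GCGGGGGCG or the cAMP response element letters TGACGTCA, searched on both strands.
Gad1: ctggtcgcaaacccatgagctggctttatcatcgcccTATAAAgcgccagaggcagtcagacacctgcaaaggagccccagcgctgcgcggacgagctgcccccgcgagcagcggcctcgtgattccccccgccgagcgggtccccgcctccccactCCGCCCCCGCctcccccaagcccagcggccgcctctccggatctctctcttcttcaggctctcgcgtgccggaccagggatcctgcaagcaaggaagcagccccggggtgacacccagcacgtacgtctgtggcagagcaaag
Gad2: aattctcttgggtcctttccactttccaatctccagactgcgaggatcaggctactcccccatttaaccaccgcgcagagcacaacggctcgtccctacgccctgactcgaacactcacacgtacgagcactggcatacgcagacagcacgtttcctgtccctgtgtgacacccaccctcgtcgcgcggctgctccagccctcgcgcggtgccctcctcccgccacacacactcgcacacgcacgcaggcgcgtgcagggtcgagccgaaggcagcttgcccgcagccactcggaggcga
Grin1: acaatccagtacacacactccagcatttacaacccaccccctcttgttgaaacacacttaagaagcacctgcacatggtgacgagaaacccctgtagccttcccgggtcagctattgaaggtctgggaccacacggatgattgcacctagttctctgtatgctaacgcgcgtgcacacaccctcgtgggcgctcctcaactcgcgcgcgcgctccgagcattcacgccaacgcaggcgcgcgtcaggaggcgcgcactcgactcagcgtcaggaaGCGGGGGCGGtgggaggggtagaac

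The EGR letters occurred once in the Gad1 window and once in the Grin1 window, and in 2.73% of 33469 rat promoter windows of the same length. In both genes that match overlapped the single match to the GC box letters, which 33.1% of all windows held. The EGR match began 92 bases before the start site in Gad1 and at base 26 after it in Grin1. Gad1 had 1 match to the TATA box letters, held by 14.2% of windows. No window of the 3 held TGACGTCA, present in 1.83%. The 5 letters TGACG matched 3 times in Grin1 and in 21.2% of all windows, and CANNTG matched once in Gad1, 2 times in Grin1 and in 72.1% of windows; these were not capitalised. Gad2, whose levels followed those of Gad1, held none of the letters searched. These are matches of letters only, and their relation to the levels of these genes was not tested.

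Libraries held 15093246 to 22757104 counts, and levels are given as CPM (each gene's share of the counts, scaled up) after TMM scaling, which corrects for library size and composition. The 3 most abundant genes took 8.49% to 9.60% of the counts in sham and 6.78% to 7.55% in CCI, with no overlap, and 6.76% to 9.18% across the treated libraries. On the first principal component of all other genes, which held 20.8% of the variance, sham and CCI libraries were also separate, while each treated group was spread widely. Defining markers of the tissue and the other genes of the GABA and NMDA pathways were not analysed here, because 0 identifiers could be paired with a symbol. In bulk tissue, fewer cells of a type and less RNA per cell cannot be told apart. Levels are compared between libraries and not between genes, because the sources used here do not state the lengths over which reads were counted.

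No member passed the test in any comparison. EdgeR's quasi-likelihood test called 0 of 50 differences (5 genes in 10 pairs of groups) at an adjusted p under 0.05, and DESeq2 also called 0. An unadjusted p under 0.05 was reached by 6 of the 50, of which 5 were Grin2b and 1 was Gad2. Over all genes, calls in these pairs were rare: 0.0666% of genes for CCI+YZP against sham, 0.0424% for CCI+YH against sham and for CCI+YH against CCI+BZ, 0.0182% for CCI against sham and for CCI+YZP against CCI+BZ, 0.00605% for CCI+YZP against CCI and 0% in the other 4 pairs. An unadjusted p under 0.05 was commoner in the comparisons with sham, at 17.9% of all genes for CCI, 11% for CCI+YZP, 13.1% for CCI+YH and 7.83% for CCI+BZ. Against CCI it was reached by 6.94% of genes with YZP, 5.59% with YH and 6.63% with BZ. Between treated groups it was reached by 3.56% for YZP against YH, 5.1% for YZP against BZ and 5.44% for YH against BZ. The test for any difference among the 5 groups called 0 members, where 0.0908% of all genes were called. In it Grin2b alone had an unadjusted p under 0.05, as had 10.5% of all genes, and its adjusted p by edgeR was 0.447. In the contrast of the 4 ligated groups with sham, all 5 members had positive log2 fold changes of 0.06 to 0.19, as had 48.9% of all genes. None was called in it, where 0.188% of all genes were and 16.1% had an unadjusted p under 0.05. In CCI against sham all 5 values were likewise above 0, as were those of 49.7% of genes. What the data allow is narrow for Grin1 and wider for the others. Over all pairs of groups the 95% intervals of the log2 fold change stayed between -0.20 and 0.24 for Grin1, -0.36 and 0.40 for Gad1, -0.54 and 0.63 for Gad2, -0.67 and 0.59 for Grin2b and -0.83 and 0.78 for Grin2a. The bound farthest from 0 is a 1.18-fold difference for Grin1 and a 1.78-fold difference for Grin2a.

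**Figure D1:**
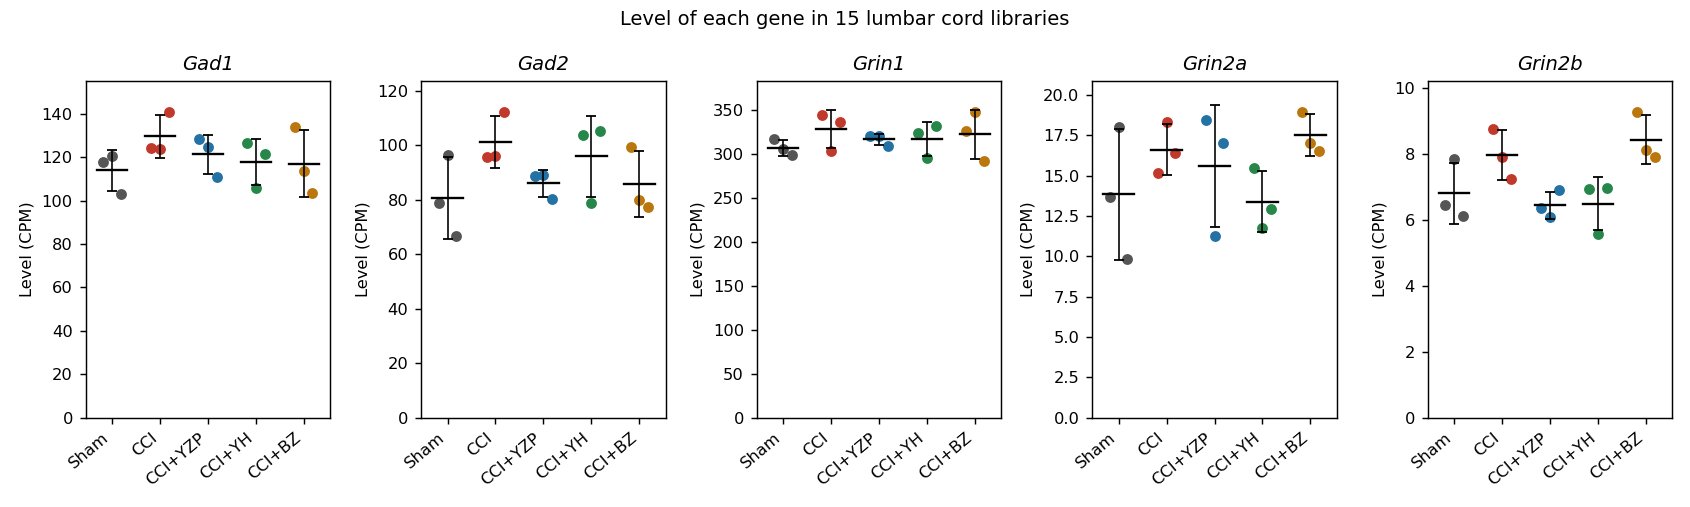
Level (CPM, y axis from 0) of each gene in the 15 libraries, by group, with the group mean (wide bar) and SD (error bar, n = 3). Gad1 in CCI lies above every sham library, and Grin2b lies higher in CCI and CCI+BZ than in CCI+YZP and CCI+YH.

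Gad1 encodes the GAD67 enzyme. Sham libraries held 117.8, 120.8 and 103.2 CPM, and CCI libraries held 124.3, 123.8 and 141.0 CPM. All 3 CCI libraries were above all 3 sham libraries, which was so for 13.2% of all genes in this direction. The mean was 113.9 ± 9.42 CPM for sham and 129.7 ± 9.82 CPM for CCI (SD, n = 3 each). The fitted log2 difference was 0.19 with SE 0.101 and an edgeR adjusted p of 0.345, and 0.0182% of all genes were called here. It was 0.12 without Sham replicate 3 or without CCI replicate 3. Gad1 stood at 128.2, 124.9 and 111.1 CPM after YZP, at 126.5, 105.9 and 121.3 CPM after YH, and at 134.0, 113.7 and 103.5 CPM after BZ. Each treated group reached from the sham range into or near the CCI range. Set against CCI, the log2 fold change with YZP was -0.10, with a 95% interval of -0.31 to 0.12. With YH it was -0.14 (-0.35 to 0.08) and with BZ -0.15 (-0.36 to 0.07). The value with BZ was -0.26 without CCI+BZ replicate 1, -0.07 without CCI+BZ replicate 3 and -0.08 without CCI replicate 3. In the order of means, CCI was followed by CCI+YZP, CCI+YH, CCI+BZ and sham, and no neighbours in it differed by more than their pooled SD.

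Gad2 encodes GAD65 and varied more. Sham libraries held 78.8, 96.4 and 66.7 CPM, CCI libraries 95.5, 95.9 and 112.3 CPM, and the highest sham library lay among the CCI libraries. The mean was 80.7 ± 14.9 CPM for sham and 101.2 ± 9.60 CPM for CCI (SD, n = 3 each). The fitted log2 difference was 0.33 with SE 0.141, and leaving out 1 library moved it between 0.21 (without Sham replicate 3) and 0.48 (without Sham replicate 2). Its unadjusted edgeR p was 0.0360, as it was under 0.05 for 17.9% of all genes, and the adjusted p was 0.247. Limma voom with sample quality weights, which called 12.6% of all genes here, called Gad2 (log2 fold change 0.35, adjusted p = 0.0416). Over all alternatives its adjusted p in this comparison ranged up to 0.998. CCI+YZP libraries held 88.7, 89.0 and 80.4 CPM, all below the CCI libraries. Gad2 and Grin2b were the 2 of 5 members with this pattern, which 7.43% of all genes showed. With YH the libraries held 103.8, 78.6 and 105.1 CPM and with BZ 99.5, 79.9 and 77.3 CPM, each overlapping CCI. Set against CCI, the log2 fold change with YZP was -0.23, with a 95% interval of -0.54 to 0.07. With YH it was -0.08 (-0.38 to 0.22) and with BZ -0.24 (-0.54 to 0.06), and none was called.

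Grin1, which encodes the GluN1 subunit present in every NMDA receptor, was the steadiest of the 5. Its 15 libraries ran from 292.2 to 348.5 CPM, a 1.19-fold range, and both ends were CCI+BZ libraries. Means were 307 ± 9.07 CPM in sham, 328 ± 21.6 in CCI, 317 ± 6.23 with YZP, 317 ± 19.3 with YH and 322 ± 28.4 with BZ (SD, n = 3 each), and every pair of groups overlapped. CCI against sham gave 0.09 on the log2 scale, with SE 0.0689 and an edgeR adjusted p of 0.494. Relative to CCI, YZP and YH each gave -0.05 and BZ gave -0.03, with SE 0.0689 to 0.0690. The pooled SD within groups of log2 CPM was 0.09 for Grin1, lower than in all but 17.5% of genes, against a median of 0.16 over all genes. Its mean log2 CPM was higher than that of 97.6% of genes, and its SD was not compared with genes of like level.

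Grin2a encodes the GluN2A subunit and was the most variable member, with 185 to 409 counts per library. Sham libraries held 13.7, 17.99 and 9.84 CPM, CCI libraries 15.1, 18.3 and 16.4 CPM, and CCI+YZP libraries 18.4, 11.3 and 17.0 CPM. With YH they held 15.5, 11.7 and 12.9 CPM, and with BZ 19.0, 17.0 and 16.5 CPM. CCI+BZ was the only group whose libraries all lay above those of another group, namely CCI+YH. Of the 5 members, 2 (Grin2a and Grin2b) were lower in CCI+YH than in CCI+BZ without overlap, where 4.74% of all genes were. At these differing doses the log2 difference of YH from BZ was -0.39, with SE 0.205 and an edgeR adjusted p of 0.944, and 0.0424% of all genes were called. For CCI against sham the fitted log2 difference was 0.26, with SE 0.203 and an adjusted p of 0.522. That value rests on single sham libraries, since it was 0.07 without Sham replicate 3 and 0.50 without Sham replicate 2. Relative to CCI, YZP gave -0.09 with a 95% interval of -0.53 to 0.34. YH gave -0.32 (-0.76 to 0.12) and BZ gave 0.08 (-0.36 to 0.51). Without CCI+YZP replicate 2, the lowest CCI+YZP library, the value for CCI+YZP was 0.09. The pooled SD within groups of log2 CPM was 0.28, larger than in 74.4% of genes.

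Grin2b encodes GluN2B and, of the 5 members, gave the clearest separation between groups, on the fewest counts, 100 to 200 per library. Counting error alone is then 7.07% to 10.0% of a library's value. Sham libraries held 6.46, 7.87 and 6.12 CPM, and CCI libraries held 8.75, 7.92 and 7.24 CPM. Levels were 6.36, 6.11 and 6.90 CPM with YZP, 6.94, 5.58 and 6.99 CPM with YH, and 9.30, 8.12 and 7.92 CPM with BZ. Every CCI+YZP and CCI+YH library was thus below every CCI and CCI+BZ library, and CCI+BZ was also above sham. The lowest CCI+BZ library, at 7.92 CPM, and the highest sham library, at 7.87 CPM, differed by less than counting error. So did the lowest CCI library, at 7.24 CPM, and the highest CCI+YZP and CCI+YH libraries, at 6.90 and 6.99 CPM. Groups did not overlap in 5 of 10 pairs for Grin2b, against 1 of 10 for each of Gad1, Gad2 and Grin2a and 0 for Grin1. The pairs share groups, so they are not separate results. The share of all genes with as many such pairs was not counted.

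The mean of Grin2b was 6.82 ± 0.931 CPM in sham, 7.97 ± 0.760 in CCI, 6.46 ± 0.408 with YZP, 6.50 ± 0.800 with YH and 8.45 ± 0.743 with BZ (SD, n = 3 each). CCI and sham overlapped, with a log2 difference of 0.23, SE 0.132 and an edgeR adjusted p of 0.384. Leaving out 1 library moved it between 0.15 (without CCI replicate 1) and 0.34 (without Sham replicate 2). Relative to the same CCI libraries, YZP gave -0.30 (SE 0.133, adjusted p = 0.679) and YH also gave -0.30 (SE 0.133, adjusted p = 0.877). BZ gave 0.08 (SE 0.131, adjusted p = 0.923). Against CCI, 0.00605% of all genes were called with YZP and 0% with YH or BZ, and 7.43% and 5.61% were lower without overlap with YZP and YH. Relative to BZ, at differing doses, YZP gave -0.39 (SE 0.133, edgeR adjusted p = 0.838) and YH gave -0.38 (SE 0.133, adjusted p = 0.782), and 4.51% and 4.74% of all genes were lower without overlap. CCI+BZ against sham gave 0.31 (SE 0.132, adjusted p = 0.614), in the direction that 5.34% of all genes took without overlap. CCI+YZP and CCI+YH differed by -0.01, with a 95% interval of -0.30 to 0.28.

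**Figure D2:**
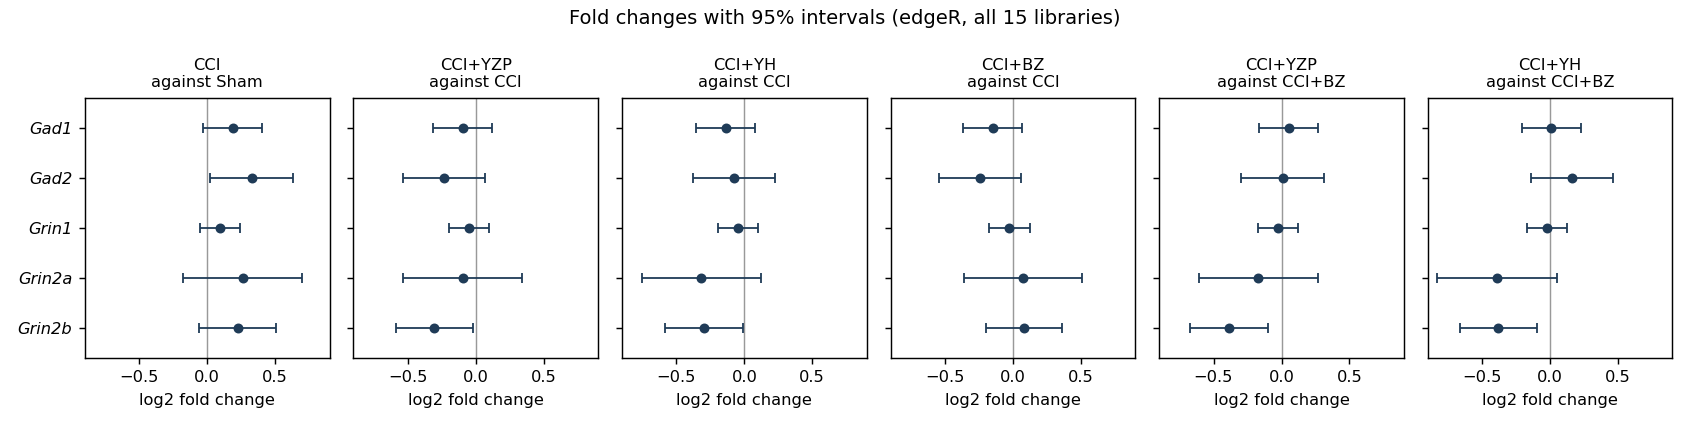
Log2 fold change of each gene (x axis) with its 95% interval (bar) in 6 comparisons, from the edgeR fit of all 15 libraries. Intervals of Grin2b against CCI+BZ lie below 0 before adjustment over 16522 genes, those of Grin1 are the narrowest and none of the differences was called.

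The balance of the GABA genes to the NMDA receptor genes was read in each library as the log2 ratio of the summed counts of Gad1 and Gad2 to those of Grin1, Grin2a and Grin2b. This ratio does not depend on library size, but its relation to library composition was not tested. It was -0.51 (CCI replicate 3) and -0.60 (CCI+BZ replicate 1) where the top 3 genes took least, 6.78% and 6.76% of counts. It was -0.89 (Sham replicate 3) and -0.81 (CCI+BZ replicate 3) where they took most, 9.60% and 9.18%. In between, CCI+YZP replicates 1, 2 and 3 gave -0.67 at 7.99%, -0.66 at 7.02% and -0.80 at 8.56%. CCI+YH replicates 1, 2 and 3 gave -0.59 at 7.91%, -0.76 at 9.09% and -0.64 at 7.38%. CCI replicates 1 and 2 gave -0.75 at 7.55% and -0.59 at 7.53%. Sham replicates 1 and 2 gave -0.78 at 8.76% and -0.61 at 8.49%, and CCI+BZ replicate 2 gave -0.95 at 8.43%. Sham and CCI did not overlap in these percentages, so injury and composition cannot be told apart there. The ratio is a summary of chosen genes, so its values are described without a test. Sham libraries gave -0.78, -0.61 and -0.89, CCI libraries -0.75, -0.59 and -0.51, and CCI+YZP libraries -0.67, -0.66 and -0.80. The values were -0.59, -0.76 and -0.64 with YH and -0.60, -0.95 and -0.81 with BZ. Groups overlapped in all 10 pairs. The mean was highest in CCI at -0.61 ± 0.12, followed by CCI+YH at -0.66 ± 0.09, CCI+YZP at -0.71 ± 0.08, sham at -0.76 ± 0.14 and CCI+BZ at -0.79 ± 0.17 (SD, n = 3 each). CCI exceeded sham by 0.15 and CCI+BZ by 0.17, each a little over the pooled SD of 0.13 and 0.15. Leaving out 1 library changed both by over 1.5 times. The excess over sham was 0.08 without Sham replicate 3, 0.09 without CCI replicate 3 and 0.22 without Sham replicate 2, and CCI+BZ minus CCI lay between -0.27 (without CCI+BZ replicate 1) and -0.09 (without CCI+BZ replicate 2).

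Grin1 made up 92.0% to 94.9% of the NMDA receptor counts, so that ratio hardly reads Grin2a or Grin2b. With each gene weighted equally, as the mean log2 CPM of the GABA genes minus that of the NMDA receptor genes, the groups separated in 4 of 10 pairs. With summed counts they separated in 3 of 10 without Grin1 and in 0 of 10 without any other single member. How often other sets of genes separate groups in this way was not counted. With equal weights the values were 1.80, 1.75 and 1.85 with YH and 1.57, 1.38 and 1.40 with BZ. CCI+BZ lay below every library of CCI+YH, CCI and sham, and CCI+YH lay above sham, whose libraries held 1.66, 1.61 and 1.65. CCI libraries stood at 1.60, 1.62 and 1.87 and CCI+YZP libraries at 1.66, 1.90 and 1.504. The difference between CCI+YH and CCI+BZ was 0.35 with equal weights and 0.12 with summed counts. Without Grin1 in the sum it was 0.47. The order of the groups on this balance therefore differed with the weight of Grin2a and Grin2b, as the plot of both ratios shows.

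**Figure D3:**
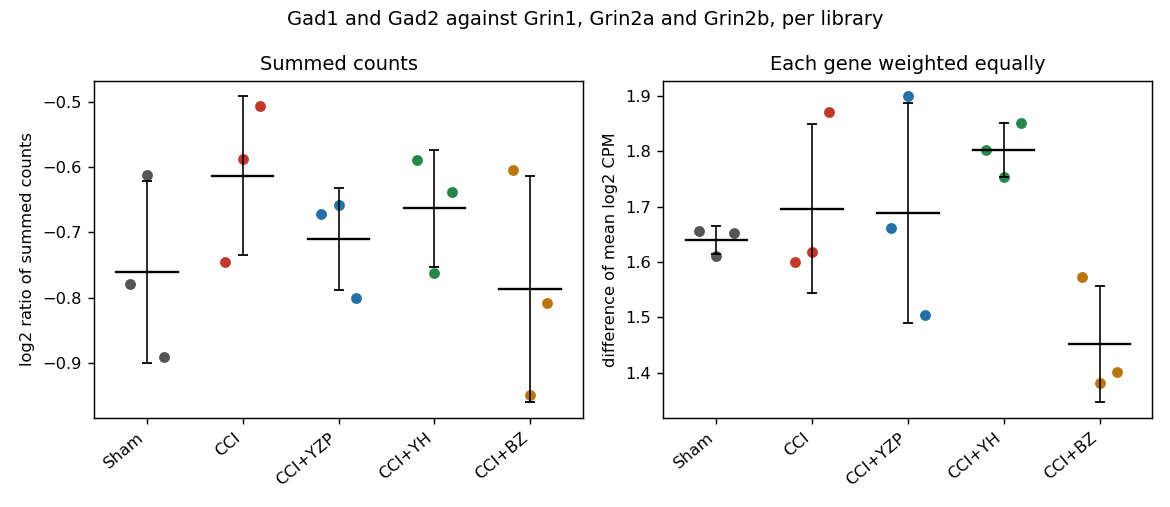
Balance of GABA to NMDA receptor genes in each library, as the log2 ratio of summed counts (left) and as a difference of mean log2 CPM with equal gene weights (right), with the group mean (wide bar) and SD (error bar, n = 3); neither y axis starts at 0. All groups overlap on the left, and CCI+BZ lies below CCI+YH, CCI and sham on the right.

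Within each family the members were also set against each other. The ratio of Gad1 to Gad2 counts was 1.302, 1.29 and 1.26 in CCI and 1.45, 1.40 and 1.38 in CCI+YZP, so these groups did not overlap. With YH it was 1.22, 1.35 and 1.15, below CCI+YZP, and with BZ 1.35, 1.42 and 1.34, above CCI. Sham libraries stood at 1.49, 1.25 and 1.55 and spanned CCI. Groups did not overlap in 3 of 10 pairs, and how often ratios of other genes separate groups was not counted. The ratio of Grin2a to Grin2b counts overlapped in all 10 pairs, between 1.61 and 2.90 over the 15 libraries, with a mean of 2.13 ± 0.315 (SD, n = 15). No test was made of these ratios.

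Gad1 and Gad2 varied together across the 15 libraries. Pearson's r of log2 CPM was 0.87 and Spearman's rho 0.80 (two-sided permutation p = 6e-05 and 0.00056, adjusted over 10 pairs of members 0.0006 and 0.0056). It was 0.81 without the 2 libraries farthest from the median of Gad1, and 0.90 for deviations from group means. For residuals on the percentage of counts taken by the top 3 genes, r was 0.45 with an adjusted permutation p of 0.486, so the relation no longer passed. Grin2a and Grin2b gave r = 0.69 (permutation p = 0.00417, adjusted 0.0208) and rho = 0.60 (p = 0.0216, adjusted 0.0624), with r = 0.61 without the 2 farthest libraries and 0.65 for those residuals (adjusted permutation p = 0.0975). Gad1 and Grin1 gave r = 0.62 (permutation p = 0.0146, adjusted 0.0487) and rho = 0.62 (p = 0.0165, adjusted 0.0624). Their r was lower, at 0.42, without Sham replicate 3 and CCI+BZ replicate 3, the 2 libraries farthest from the median of Gad1. For deviations from group means r was 0.58. For the residuals it was 0.16 (adjusted permutation p = 0.856). The other 7 pairs had r of 0.22 to 0.52 and adjusted permutation p of 0.114 to 0.429. Grin1 did not follow Grin2a closely (r = 0.22, permutation p = 0.429, rho = 0.15, p = 0.585).

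**Figure D4:**
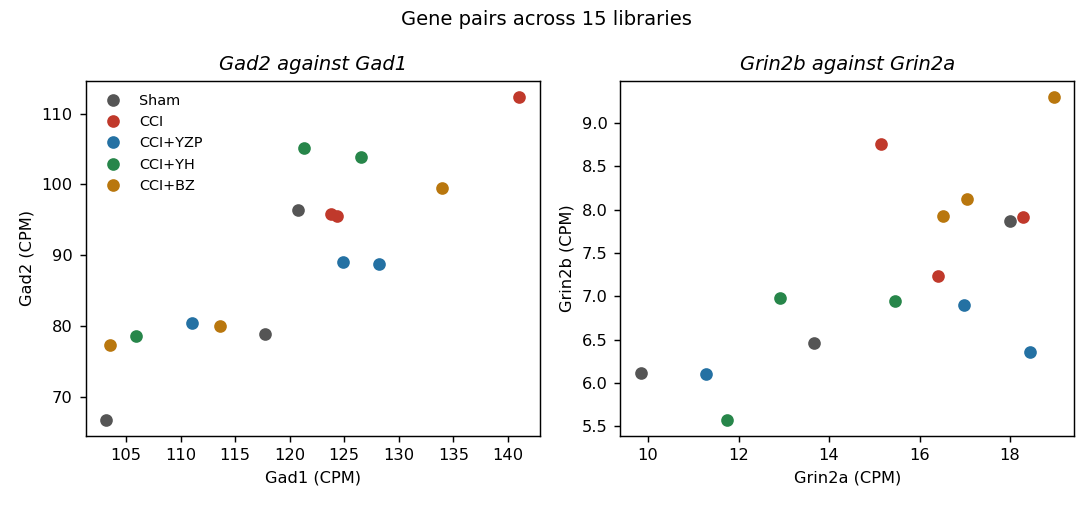
Gad2 against Gad1 (left) and Grin2b against Grin2a (right), in CPM, 1 point per library, coloured by group; axes do not start at 0. Sham replicate 3 is lowest and CCI replicate 3 highest for both GABA genes, and the CCI+BZ libraries lie at the upper right for the NMDA receptor pair.

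The GABA genes also moved with the composition of the libraries, and how many other genes do so as closely was not counted. The percentage of counts taken by the top 3 genes had r = -0.90 with Gad1 (rho = -0.88, permutation p = 3e-05 and 8e-05, adjusted over 15 relations 0.00045 and 0.000825) and r = -0.85 with Gad2 (rho = -0.84, permutation p = 0.0001 and 0.00011, adjusted 0.00075 and 0.000825). Without the 2 farthest libraries r was -0.86 and -0.80, and for deviations from group means it was -0.90 and -0.86, so the relation held within groups. For Grin1 r was -0.63 (rho = -0.66, permutation p = 0.0142 and 0.0093, adjusted 0.0427 and 0.0279), -0.58 without the 2 farthest libraries and -0.55 for deviations from group means. For Grin2a r was -0.33 (permutation p = 0.236) and for Grin2b -0.39 (p = 0.151), with rho of -0.27 and -0.36, and neither passed. Without Sham replicate 3 and CCI+BZ replicate 1 r was 0.09 and -0.10, and for deviations from group means it was -0.18 and -0.45. Shares are part of the same totals as the genes, and the total count of a library gave an adjusted permutation p of 0.259 or more for r with each member. For deviations from group means, the total count had r = -0.73 with Gad1 and -0.60 with Gad2. The part of the share and of depth in the results for these genes was not tested beyond these values.

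With that share as a covariate in the edgeR fit, the log2 fold change of CCI against sham was -0.06 for Gad1 and -0.0035 for Gad2 in place of 0.19 and 0.33. The share did not overlap between sham and CCI, so the injury and the share cannot be told apart there. For Grin2b, the CCI+BZ libraries held 9.30 CPM at a share of 6.76%, 8.12 CPM at 8.43% and 7.92 CPM at 9.18%, lower at the higher shares, and all 3 were above every CCI+YZP and CCI+YH library. Within sham and CCI+YH, Grin2b was also lower at the higher shares. Within CCI and CCI+YZP it was higher at the higher shares, in CCI+YZP from 6.11 CPM at 7.02% to 6.90 CPM at 8.56%.

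**Figure D5:**
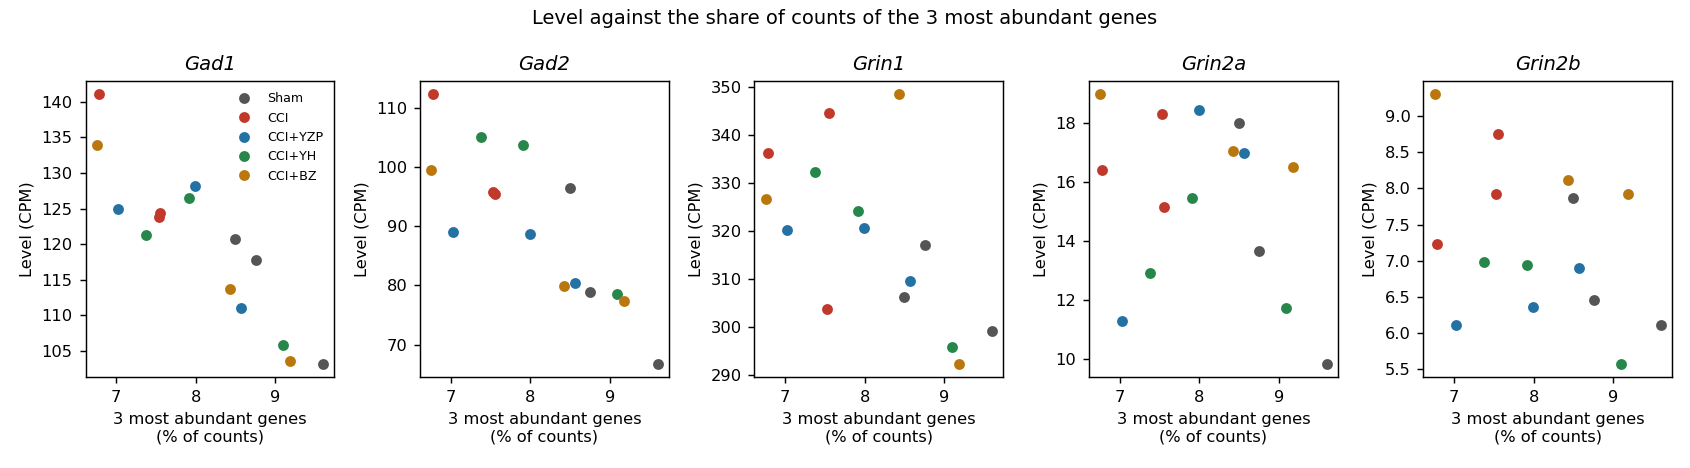
Level of each gene (CPM, y axis) against the share of counts taken by the 3 most abundant genes (%, x axis) in the 15 libraries, coloured by group; axes do not start at 0. Gad1 and Gad2 are lower at higher shares. Grin2b is lower at higher shares within sham, CCI+YH and CCI+BZ, and higher at higher shares within CCI and CCI+YZP.

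The rows most like the GABA genes, by Pearson's r of log2 CPM with the mean of Gad1 and Gad2 over 15 libraries among 15606 rows with an identifier, were ENSRNOG00000016768 (r = 0.93, rho = 0.91) and ENSRNOG00000002827 (r = 0.93, rho = 0.95). For the mean of Grin1, Grin2a and Grin2b they were ENSRNOG00000011059 (r = 0.95, rho = 0.85) and ENSRNOG00000012568 (r = 0.92, rho = 0.85). The highest of many correlations over these same libraries was taken in each case, so these values are descriptions. A like order of the groups follows from that choice, so the group levels and tests given next are descriptions too. Like Gad2, ENSRNOG00000016768 was higher in CCI, at 43.5 ± 2.51 CPM, than in sham, at 35.7 ± 5.32 CPM (SD, n = 3 each), and did not pass the test (log2 fold change 0.28, SE 0.108, edgeR adjusted p = 0.207). ENSRNOG00000011059 had its highest mean in CCI+BZ, at 62.7 ± 3.45 CPM, and stood at 52.3 ± 9.20 CPM in CCI+YH (log2 fold change of CCI+YH against CCI+BZ -0.26, SE 0.155, edgeR adjusted p = 0.965).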

How the data were processed

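RNA-seq counts of 15 libraries were used, in 5 groups of 3. Each library has its own table of unnormalized counts, which the authors deposited. The submitters' processing notes name rn4 and DESeq2 (1.16.1). The sources used here do not name the aligner, counter, annotation or strand setting, so a gene and an overlapping or antisense neighbour cannot be told apart. Per the labels' protocols, Trizol and a NEBNext Ultra kit were used. Of 34202 rows, 32883 carry an Ensembl identifier. The RefSeq gene table (GRCr8, 47357 genes) gives an Ensembl identifier for 0 genes, so planned pathway and marker lists were not tested.

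With edgeR 4.0.16 in R 4.3.3, filterByExpr (minimum count 10) kept 16522 genes. Libraries were scaled by TMM and a quasi-likelihood model with a coefficient per group was fitted to all 15 libraries (10 residual degrees of freedom, common biological coefficient of variation 15.4%). P-values were adjusted by Benjamini-Hochberg over all genes, and adjusted p under 0.05 was a call. Each standard error is the log2 fold change over the root of F. Log2 CPM used a prior count of 2. The script was tested on simulated data. Correlations used 100000 permutations; a correlation's p was also adjusted over its family. The labels do not state which rat gave which library. Each ligated group had 7 rats and 3 libraries, and libraries are taken as separate rats. No pair of same-group libraries agreed within sampling noise (chi-square per gene 7.06 to 27.0 over 15 pairs), so none was counted as deposited again; this does not show that they came from separate rats, and p-values measure the spread between these libraries.

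The 5 genes, lists and tests were chosen with earlier results of these data known. Named beside the members are the 2 rows most like each family. Alternatives were DESeq2 1.42.0, limma 3.58.1 voom with and without quality weights, scaling by RLE or by upper quartile, every gene kept, genes with a mean count of 50 or more, a fit of the compared groups alone, a threshold of 0.1, a prior count of 0.5, a replicate block, each library left out, and for the ratio, equal gene weights and each gene left out. A covariate for the top-3 share of counts was added after seeing the data.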

Additional observations from a re-analysis of the deposited data

How the results depend on the processing

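The number of members called stayed at 0 in each comparison under each alternative run (leaving out each library gave 0 to 0), except that limma voom with quality weights called 1, Gad2 in CCI against sham (log2 fold change 0.35). No sign was seen that the numbers of libraries pair them, though this does not exclude a pairing. Same-numbered libraries of different groups had correlations of -0.17 to 0.14 in their deviations, with 3 of 30 over 0.1. Differently numbered libraries of different groups had -0.27 to 0.29, with 10 of 60 over 0.1. With the replicate block 0 members were called. A covariate for the top-3 share of counts turned the sign for Gad1 (-0.058) and Gad2 (-0.0035) in CCI against sham, Gad2 in CCI+YH against CCI (0.084) and Grin1 in CCI+BZ against CCI (0.020). Grin1 in CCI+BZ against CCI was 0.014 in limma voom with quality weights. Leaving out a library gave a range through 0 for Grin2a in CCI+YZP against CCI (-0.23 to 0.091), Gad2 in CCI+YH against CCI (-0.15 to 0.046), Grin1 in CCI+YH against CCI (-0.10 to 0.00015) and Grin1 in CCI+BZ against CCI (-0.085 to 0.040). In CCI against sham it gave 0.12 to 0.23 for Gad1, 0.21 to 0.48 for Gad2, 0.058 to 0.15 for Grin1, 0.069 to 0.50 for Grin2a and 0.15 to 0.34 for Grin2b. The differences of Grin2b from CCI+BZ kept their sign in all 26 alternatives. They lay between -0.44 and -0.31 in CCI+YZP and between -0.44 and -0.28 in CCI+YH. Some alternatives could move them little or not at all, such as the threshold of 0.1 or leaving out a library of another group. The number that kept the sign is therefore not a measure of support.

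The log2 ratio of GABA to NMDA genes moved by over 1 SD without Grin1 in CCI against sham (-0.027), CCI+YZP against CCI (0.021), CCI+YH against CCI (0.20), CCI+BZ against sham (-0.30), CCI+YZP against CCI+YH (-0.18), CCI+YZP against CCI+BZ (0.29) and CCI+YH against CCI+BZ (0.47). With equal weights it moved in CCI+YH against CCI (0.11), CCI+BZ against sham (-0.19), CCI+YZP against CCI+BZ (0.24) and CCI+YH against CCI+BZ (0.35), and without Gad1 in CCI+YZP against CCI+YH (-0.15). Leaving out 1 library took this ratio through 0 in CCI+YH against CCI (-0.12 to 0.0033), CCI+YZP against sham (-0.015 to 0.12), CCI+BZ against sham (-0.12 to 0.054) and CCI+YZP against CCI+BZ (-0.0038 to 0.17).

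Residuals on that top-3 share lowered the correlation of Gad1 with Gad2 to 0.45 (adjusted permutation p = 0.486), of Gad1 with Grin1 to 0.16 (0.856) and of Grin2a with Grin2b to 0.65 (0.0975), and turned Gad1 with Grin2b (-0.031) and Gad2 with Grin1 (-0.016). The cause was not tested. Counts of 100 to 200 limit Grin2b, and 3 libraries per group limit all 5 genes.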
